A study of Mus musculus with 35 samples.

Results

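The clustered protocadherins are cadherin-family membrane proteins encoded by neighbouring gene clusters, Pcdha, Pcdhb and Pcdhg, on mouse chromosome 18. In the Pcdha and Pcdhg clusters each variable exon has a promoter of its own and is spliced to constant exons that all genes of the cluster share, whereas each Pcdhb gene is a single exon with no shared part. The proteins are best known from neurons, where each cell uses its own small choice of promoters and the resulting mixture of proteins serves as an identity tag for recognising branches of the same cell. Promoter choice there depends on CTCF and cohesin, and DNA methylation keeps promoters silent. The members described here were all array probes whose gene name belongs to 1 of the clusters, which were 45 probes with 31 gene names among 41174 gene probes with 27962 names.

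Gene expression was measured with 1-colour Agilent mouse arrays. The 30 induced pluripotent stem (iPS) clones made 6 groups of 5, from PαS cells (CD45-Ter119-PDGFRa+Sca-1+ mesenchymal stem cells of bone marrow), OP cells (CD45-Ter119-PDGFRa-Sca-1- osteo-progenitors of bone marrow) or TTF (tail tip fibroblasts) of adult Nanog-reporter transgenic mice. 4F-clones were made with retroviral Oct3/4, Sox2, Klf4 and c-Myc and 3F-clones without c-Myc, and each array is 1 clone, GFP+ and DsRed- by selection and kept on SNL feeder cells with LIF. The other arrays were 1 each of the ES cell lines EB-3 and RF8 and 1 each of the PαS, OP and TTF sources, so each ES line and each source is a single array. The labels do not say whether clones came from separate animals, so p-values measure the spread between these clones. Values are log2 of the background-subtracted signal relative to the 75th percentile of the array, and a probe counted as measured when the scanner software called it well above background. Signals of different probes cannot be set against each other, so levels are compared between arrays for the same probe.

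Across the 35 arrays 56.6% to 71.2% of all gene probes were well above background. All clones were scanned in 1 session, RF8 in another and EB-3 together with the 3 sources on 1 slide in the third, so a difference that all clones share from ES cells or from a source cannot be told apart from the scan session. The labels of the sources were checked against their surface markers. Ly6a, which encodes Sca-1, read 5.58 in PαS, 3.54 in OP and 3.53 in TTF, while Pdgfra, absent by label from OP, read 0.98, 1.58 and 0.59 with the brighter of its 2 probes and was well above background on all 3. The CD45 gene Ptprc was well above background with 4 of 4 probes in TTF, with 1 of 4 in PαS and with none in OP. Sox2 and Nanog were not well above background in 3 clones, 4F-OP-iPS #1 and #3 and 4F-TTF-iPS #1.

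The array covered the clusters unequally. RefSeq lists 58 clustered genes, of which the array named 3 of 14 for Pcdha, all 22 for Pcdhb and 6 of 22 for Pcdhg. None of the 5 C-type genes (Pcdhac1, Pcdhac2, Pcdhgc3, Pcdhgc4 and Pcdhgc5), the members that are used constitutively rather than by choice, was named. Pcdha had 6 probes, of which 3 lie in the shared constant part and read all Pcdha transcripts together, and Pcdhg had 10, of which 3 are shared in the same way. These are called alpha shared and gamma shared probes 1 to 3 below, and where a gene had more than 1 probe of its own they are numbered in chromosome order. Gamma shared probes 2 and 3 overlap on the genome, as do both probes of Pcdhb15. The 29 Pcdhb probes are each listed under 1 gene, and the accessions listed for the Pcdhb18 probe also name Pcdhb20 and Pcdhb17. Over their best ungapped alignment no pair of probes of different Pcdhb genes reached 80% identity, the highest being 78.0% for Pcdhb5 probe 1 and Pcdhb6, and the median over 399 pairs was 37.3%. Probes were not aligned with the transcripts of other Pcdhb genes, so reading across genes was not tested. By the array's annotation on build mm7, the probes of the clusters lie on chromosome 18 from 37331289 to 37563623 for Pcdha, 37643329 to 37897275 for Pcdhb and 38040257 to 38217985 for Pcdhg. Of the 45 probes, 42 carry an accession that RefSeq places under the same symbol, 27 of them Pcdhb probes.

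Many of the probes were dark in the iPS clones. Of the 45 probes, 24 were well above background in at least 15 of the 30 clones, 10 in all 30 and 11 in none. Among Pcdhb probes these numbers were 14, 6 and 9 of 29. The 6 Pcdhb probes measured in every clone were Pcdhb5 probe 1, Pcdhb6, both Pcdhb17 probes, Pcdhb21 and Pcdhb22, and the 14 measured in at least 15 clones lie, apart from Pcdhb5, Pcdhb6 and Pcdhb7, in the 3′ part of the cluster from Pcdhb14 to Pcdhb22. Pcdhb1, Pcdhb2, Pcdhb8, Pcdhb12 and Pcdhb13 were dark in all clones. The second probes of Pcdhb5 and Pcdhb19 were also dark in all clones although the first probes of these genes were measured, so a dark probe is not in itself a silent gene.

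The number of Pcdhb probes well above background ranged from 6 to 19 per clone. The medians over 5 clones were 10 in 4F-PαS-iPS, 13 in 3F-PαS-iPS and 14 in each of the 4F-OP-iPS, 3F-OP-iPS, 4F-TTF-iPS and 3F-TTF-iPS groups, and the ranges of all 6 groups overlapped. EB-3 measured 3 of the 29, Pcdhb5 probe 1, Pcdhb18 and Pcdhb22, and RF8 measured 14. The source arrays measured 18 in PαS, 25 in OP and 20 in TTF. EB-3 and the sources were on the same slide, and 64.3% of all gene probes were well above background in EB-3, as in PαS, where it was also 64.3%. EB-3 and PαS thus differed in the Pcdhb probes measured, 3 against 18, at the same overall share.

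**Figure D1:**
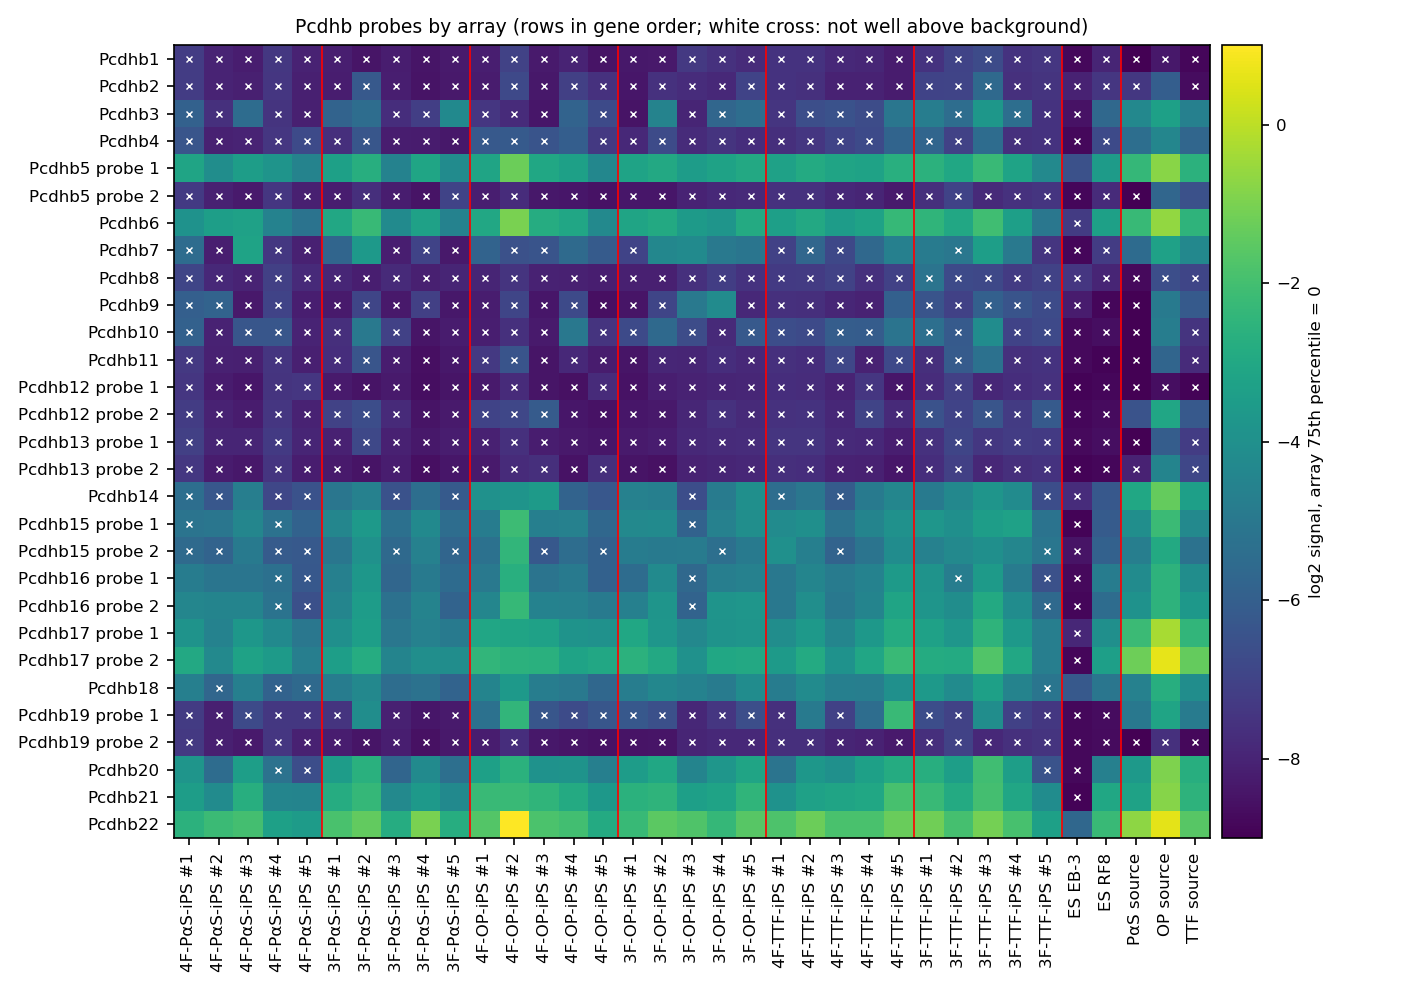
Log2 signal (colour, array 75th percentile = 0) of the 29 Pcdhb probes, in gene order from top to bottom, on 30 iPS clones, 2 ES cell lines and 3 sources, with white crosses where a probe was not well above background. EB-3 is dark in 26 of the rows, OP source cells are the brightest of the 3 sources in the 25 rows measured there, and the measured rows of the clones lie mostly from Pcdhb14 to Pcdhb22.

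In the sources, Pcdhb signal was highest in OP cells. All 25 Pcdhb probes measured in OP cells read higher there than on both the PαS and the TTF array, and the other 4 were dark on all 3 sources and give no order. Pcdhb17 probe 2 read -1.19 in PαS, 0.63 in OP and -1.36 in TTF, and Pcdhb14 read -3.03, -1.35 and -3.36. Pcdhb22, the last gene of the cluster, read -0.71, 0.59 and -1.59. The order was not that of the whole family. Gamma shared probe 2, which reads all Pcdhg transcripts, gave 4.18, 4.35 and 3.38, while alpha shared probe 2, which reads all Pcdha transcripts, gave -2.37, -3.22 and -0.31, with TTF the highest for all 3 alpha shared probes. Each source is 1 array, so these are the values of single samples and no test was possible.

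Compared with clones made from the same cells, OP source cells stood farthest above their clones in the Pcdhb cluster. Many of these probes were dark in some or all of the clones, so a dark clone was set at the lowest signal still measured on its array, or at its own signal where that was higher. Of the 25 Pcdhb probes well above background in OP cells, 15 were then above all 10 OP-iPS clones. The same held for 6 of 18 in PαS and for 3 of 20 in TTF cells. Over the probes measured in the source, the median difference from the mean of its clones was at least 2.12 in log2 for OP, 0.90 for PαS and 0.40 for TTF. Over the probes measured in the source and in all 10 of its clones, it was 2.38 for OP (8 probes), 1.57 for PαS (6 probes) and 0.49 for TTF (7 probes). Pcdhb17 probe 2, for example, read -3.92 to -2.42 in OP-iPS clones, below the source at 0.63, and the source was 11.8-fold above their mean. Pcdhb12 and Pcdhb13 were well above background in OP cells, Pcdhb12 probe 2 at -3.10 and Pcdhb13 probe 2 at -4.51, and dark in all clones. For Pcdhb22 a clone reached the OP source, since 4F-OP-iPS #2 read 0.98. The alpha shared probes read above all 10 TTF-iPS clones in the TTF source (probe 2 at -0.31 against -6.44 to -1.88). The sources were scanned in another session than the clones, and the part of the session in these differences cannot be told apart.

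Against EB-3, iPS clones were higher in Pcdhb genes, while against RF8 alone limma called 0 of the 12 tested Pcdhb probes (0 at an unadjusted p under 0.05). With both ES arrays together, of the 22 member probes tested, which had to be measured in all arrays of 1 clone group or of the ES cells, 12 were called higher in clones (limma, adjusted p under 0.05 over 27617 probes and at least 2-fold) and none lower, where 17.2% of all probes tested were called higher and 19.0% lower. The called probes were 11 of 12 tested in the Pcdhb cluster, 1 of 6 in Pcdhg and 0 of 4 in Pcdha. Most Pcdhb probes were dark in EB-3 and so passed the filter through the clones, which leans the count of tested probes upward. Without the filter 16 of all 45 member probes were called higher, against 15.1% of 41174 probes, and these were 15 of 29 in Pcdhb, 1 of 10 in Pcdhg and 0 of 6 in Pcdha. Of the 29 Pcdhb probes 9 were dark in all clones and in both ES lines, so that their differences carry no direction, and 1 of these, Pcdhb12 probe 2, is among the 15. With another background correction (normexp) no member was called, as given at the end of this comparison.

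The values by array show where the difference lies. Pcdhb22 read -5.68 in EB-3 and -2.22 in RF8, both well above background, and from -3.53 through a median of -1.87 to 0.98 in the 30 clones. All clones were above EB-3 and 21 of 30 above RF8. Their mean was 13.5-fold that of EB-3, and the fitted difference from both ES arrays was 2.02 ± 0.67 in log2 (SE, limma, adjusted p = 0.0137). Pcdhb5 probe 1 was also measured in both lines, at -6.50 in EB-3 and -3.52 in RF8, against -4.55, -3.20 and -1.23 as lowest, median and highest clone, and its fitted difference was 1.73 ± 0.56 (limma, adjusted p = 0.0118). For both genes EB-3 lay below every clone and RF8 lay inside the range of the clones.

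Pcdhb21, Pcdhb17 and Pcdhb20 repeated this pattern with EB-3 at background. Pcdhb21 read -8.90 in EB-3, not well above background, -3.04 in RF8, and -4.49 to -1.92 in clones with a median of -3.07. Pcdhb17 probe 2 read -8.84, not well above background, -3.35, and -4.73 to -1.72 with a median of -3.02, and in its probe 1 EB-3 was likewise below all clones and RF8 within their range. Because EB-3 gives only a bound there, the clones were at least 11.0-fold above EB-3 for Pcdhb21, at least 10.1-fold for Pcdhb17 probe 2, at least 9.70-fold for Pcdhb6 and at least 6.14-fold for Pcdhb20. The bound sets the mean of clones against the dimmest signal that EB-3 still measured, on normalized log2 values. In the fit against both lines, which uses the EB-3 background signal as it stands and is no bound, the differences were 2.84 ± 0.76 for Pcdhb21 (limma, adjusted p = 0.0029), 2.84 ± 0.72 for Pcdhb17 probe 2 (adjusted p = 0.00186) and 2.76 ± 0.89 for Pcdhb20 (adjusted p = 0.011). RF8 was inside the clone range for each of these probes.

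Pcdhb15 was the tested Pcdhb gene with all clones above both lines. Its probe 1 read -8.90 in EB-3, not well above background, and -6.12 in RF8, and -5.87, -4.46 and -2.14 as lowest, median and highest clone, so that all 30 clones were above both arrays. The fitted difference was 3.01 ± 0.62 (limma, adjusted p = 0.000248), and against RF8 alone 1.62 ± 0.80 (adjusted p = 0.113), which did not pass the test. Probe 2 of the same gene was not tested with the filter and did not separate in this way, with RF8 at -5.88 and clones from -6.26 to -2.40. The remaining called probes were both Pcdhb16 probes, Pcdhb6, Pcdhb14 and Pcdhb17 probe 1, with differences from 1.81 to 2.68. Pcdhb18, the tested Pcdhb probe that was not called, differed by 0.94 ± 0.41 (limma, adjusted p = 0.0564).

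The difference lay mainly toward EB-3. Against EB-3 alone 13 members were called higher, where 17.9% of all probes were, and 1 was called lower, Pcdhga1 at -2.31 ± 0.77 (limma, adjusted p = 0.0171). Against RF8 alone 1 was called higher, gamma shared probe 1, where 12.5% of all probes were. Of the 12 tested Pcdhb probes 9 were dark in EB-3, and with these at their bounds the median difference from EB-3 was 2.67 (1.42 to 3.75), while the median difference from RF8, which measured all 12, was 0.27. The 22 members had a median fitted difference of 1.64 from both lines together, which takes the dark EB-3 signals at face value, and of 0.16 when EB-3 was left out. The calls in the Pcdhb cluster thus rest on EB-3, 1 array, and none of the 11 was kept without it.

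The shared part of Pcdhg behaved otherwise, with both ES lines alike and below the clones. Gamma shared probe 1 read -4.64 in EB-3 and -4.54 in RF8. It read -3.85, -3.89, -3.04, -3.93 and -3.50 in 4F-PαS-iPS #1 to #5 and -3.51, -2.75, -2.70, -2.42 and -3.04 in 3F-PαS-iPS. In 4F-OP-iPS it read -3.19, -2.27, -2.88, -3.18 and -3.26, and in 3F-OP-iPS -2.62, -2.85, -2.96, -2.75 and -3.03. TTF-iPS clones lay between -3.57 and -2.48. Every clone was above both ES arrays, and the fitted difference was 1.55 ± 0.25 (limma, adjusted p = 1.47e-05), a 2.93-fold difference. Without EB-3 it was 1.5 ± 0.36 (limma, adjusted p = 0.00182). Gamma shared probe 2 read 1.90 in EB-3, 1.91 in RF8 and 2.04 to 3.54 in clones, again with all 30 above both, and differed by 0.94 ± 0.21 (limma, adjusted p = 0.000639), under 2-fold. Gamma shared probe 3 differed by 0.77 ± 0.23 (limma, adjusted p = 0.00698), and 28 of 30 clones read above RF8.

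The variable exons of Pcdhg did not follow the shared part. Pcdhga1 read -3.00 in EB-3, -5.02 in RF8 and -7.69 to -3.83 in clones, so EB-3 was above every clone. Its fitted difference was -1.30 ± 0.58 (limma, adjusted p = 0.0619). Pcdhga4 probe 2 read -2.96, -3.80 and -5.06 to -2.19, and its difference of -0.25 ± 0.40 did not pass the test (limma, adjusted p = 0.612). Pcdhga7, by its variable-exon probe, read -5.22, -5.65 and -7.72 to -4.68 and differed by -0.29 ± 0.47 (limma, adjusted p = 0.626). Pcdhga12 was dark on all arrays, and so was Pcdhga4 probe 1 on all but RF8, where its spot was left out as an outlier. The array names 6 of 22 Pcdhg genes and none of the C-types, so the transcripts that carry the shared exons in these cells are not resolved.

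In the Pcdha cluster no probe was called against ES cells. Alpha shared probe 2 read -5.26 in EB-3, -3.36 in RF8 and -7.16, -3.86 and -1.88 as lowest, median and highest clone, with both lines inside the range of the clones, and its difference was 0.40 ± 0.97 (limma, adjusted p = 0.748). Alpha shared probe 3 differed by -0.74 ± 0.96 (limma, adjusted p = 0.535). Pcdha9, a variable exon measured in 21 clones, read -4.21 in RF8, above all clones, and -5.60 in EB-3, and differed by -0.52 ± 0.45 (limma, adjusted p = 0.342). With SEs of 0.97 and 0.96 in log2, a 2-fold difference of the shared probes was not detectable.

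**Figure D2:**
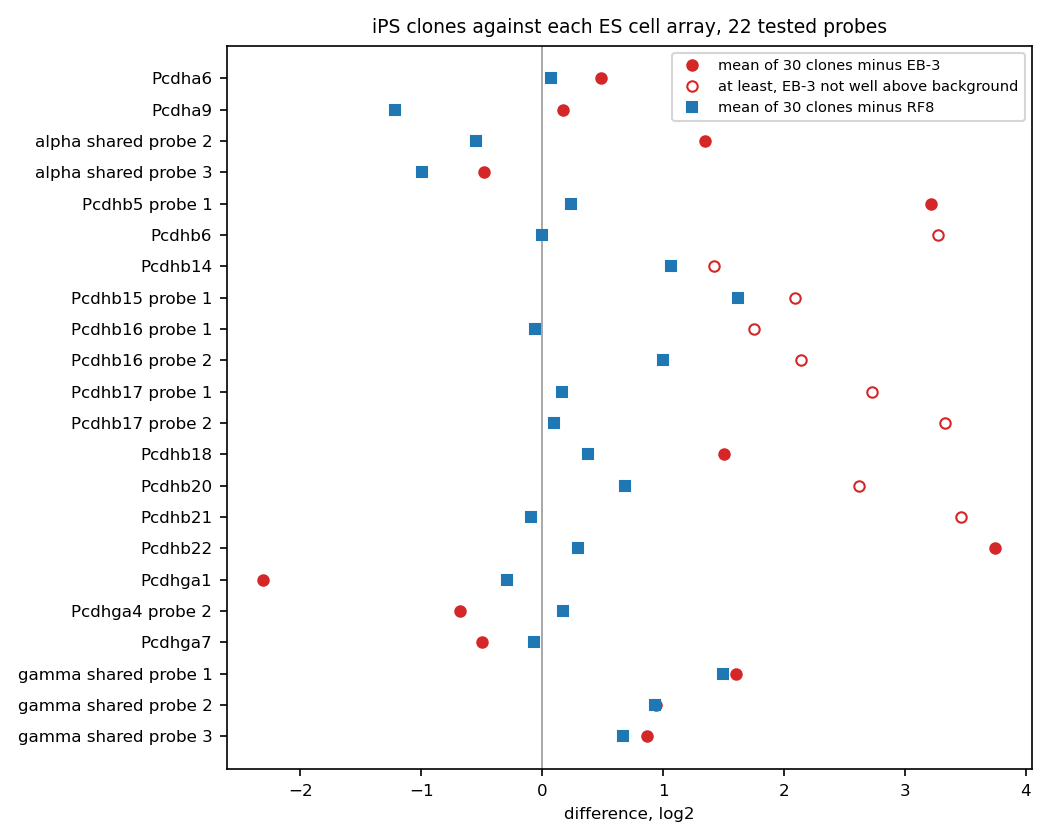
Mean of the 30 iPS clones minus EB-3 (red circles, open and a lower bound where EB-3 was not well above background) and minus RF8 (blue squares), in log2, for the 22 tested member probes. The Pcdhb probes lie from 1.42 to 3.75 against EB-3, with 9 of 12 as bounds, and from -0.09 to 1.62 against RF8, while the 3 gamma shared probes lie near each other for both lines.

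Markers of fibroblasts and of primitive endoderm differed along with the Pcdhb genes. The mean level of 18 fibroblast or feeder genes was -4.83 in EB-3, with 11 of 18 well above background, 0.40 in RF8 with 18, and -0.15 to 2.89 in clones with 17 or 18. In the sources it was 3.94 in PαS, 4.43 in OP and 3.19 in TTF. Of these 18 genes 13 were called higher in clones than in ES cells, with a median of 3.67 over the list, and Col1a1, a fibrillar collagen chain, read -4.62 in EB-3, 3.13 in RF8 and 1.61 to 6.08 in clones. All 7 primitive endoderm genes were also called higher in clones, their mean being -4.53 in EB-3, -2.71 in RF8 and -0.35 to 3.29 in clones. Over all probes tested 17.2% were called higher. Of 12 tested neural genes, of 13 on the array, 3 were called lower in clones, near the 19.0% of all probes, and none higher, and against RF8 alone limma called 0 of the 12 (2 at an unadjusted p under 0.05). Against EB-3 alone 2 neural genes, Nes and Fabp7, were called higher and 1, Pax6, lower, where 17.9% of all probes were called higher. Fabp7 was dark in EB-3 and the clones were at least 161-fold above it on average, with RF8 at 0.40 inside their range of -6.09 to 4.81. Against EB-3 alone 15 of the 18 fibroblast genes and all 7 primitive endoderm genes were called higher. Against RF8 alone 3 of the 18 fibroblast genes and 6 of the 7 primitive endoderm genes were called higher, where 12.5% of all probes were. RF8 lay within the clone range for the fibroblast mean. It lay below all 30 clones for the primitive endoderm mean and for gamma shared probes 1 and 2. The part of feeder cells or of other cells in the protocadherin differences was not tested. Bulk arrays cannot tell fewer expressing cells from less RNA per cell.

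The calls depend on the background correction. With normexp on the raw spot signals, limma called 0 of the 22 members against ES cells (2 at an unadjusted p under 0.05), 16 of 22 differences were positive and their median was 0.35. Gamma shared probe 1 then differed by 0.59 and Pcdhb22 by 0.88.

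Between clones of 1 group, the Pcdha and Pcdhb probes varied more than most probes. The pooled SD within the 6 clone groups had a median of 0.71 over the 22 tested members and 0.42 over all 27617 tested probes, and 19 of the 22 lay above the latter. By cluster the medians were 1.01 for Pcdha, 0.83 for Pcdhb and 0.46 for Pcdhg. The gamma shared probes were steady, with SDs of 0.35, 0.29 and 0.32, at percentiles 39.5, 26.9 and 32.5 of all probes, and the alpha shared probes 2 and 3 had SDs of 1.39 and 1.40, at percentiles 96.7 and 96.8. Pcdhb20, with an SD of 1.15, was at percentile 93.5. It ran from -6.62 in 4F-PαS-iPS #5, not well above background, to -2.06 in 3F-TTF-iPS #3. Pcdhb7 was not tested but was measured in 15 clones and had an SD of 1.46. Dark clones enter these SDs with their background signal at face value. For probes dark in some clones the SD is therefore in part the distance to background. With normexp the median SD was 0.50 for the members and 0.41 for all probes, a smaller gap. With a floor under dim signals it was 0.69 for the members and 0.38 for all probes.

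Some genes were measured in a few clones and dark in the rest. Pcdhb19 probe 1, chosen here after its values were seen, was well above background in 7 of 30 clones. It read -2.42 in 4F-OP-iPS #2 and -2.23 in 4F-TTF-iPS #5, against -5.01, -3.18 and -4.84 in the PαS, OP and TTF sources. The others measured were 3F-PαS-iPS #2 at -4.09, 3F-TTF-iPS #3 at -4.12, 4F-TTF-iPS #2 at -4.91, 4F-OP-iPS #1 at -5.26 and 4F-TTF-iPS #4 at -5.41, while both ES lines were dark. Its SD was 1.49, with the dark clones at their background signal. Pcdhb9, likewise chosen after its values were seen, read -4.97 in 3F-OP-iPS #3, -4.17 in 3F-OP-iPS #4 and -5.94 in 4F-TTF-iPS #5 and was dark in the other 27 clones, with the OP source at -4.87.

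Probes of the Pcdhb cluster moved together from clone to clone. After group means were removed, the Pearson correlation over 30 clones had a median of 0.76 over 88 pairs of probes of different Pcdhb genes and ranged from 0.39 to 0.92, beside a median of 0.01 and a 5th to 95th percentile of -0.51 to 0.53 over pairs of all probes. The gamma shared probes joined them, with a median of 0.72 over 42 pairs. This rests mainly on probes 2 and 3, which overlap on the genome and had medians of 0.75 and 0.76 with Pcdhb probes. Probe 1 had a median of 0.48 (0.30 to 0.61). The alpha shared probes correlated at a median of 0.93 among themselves and of 0.55 with Pcdhb probes. Within groups and slides the median of Pcdhb pairs was 0.77. These points share arrays, so a shift of an array as a whole enters all of them, and the values are a description. The percentage of probes well above background, a measure of array depth, correlated at 0.06 with the mean of the Pcdhb probes. With the gamma shared mean it correlated at 0.19 and with the alpha shared mean at 0.26. Within groups these values were 0.05 for Pcdhb, 0.06 for gamma shared and 0.36 for alpha shared.

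The variable exons of Pcdhg moved apart from this. Pcdhga4 probe 2 correlated negatively with all 14 Pcdhb probes (-0.61 to -0.33, median -0.44), and Pcdhga7 was near 0 (median 0.04). Pcdhga1 correlated at 0.11 to 0.52 with Pcdhb probes and at 0.63 to 0.73 with the alpha shared probes. Of the 42 pairs of a Pcdhb probe and a Pcdhg variable exon the median correlation was 0.04.

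**Figure D3:**
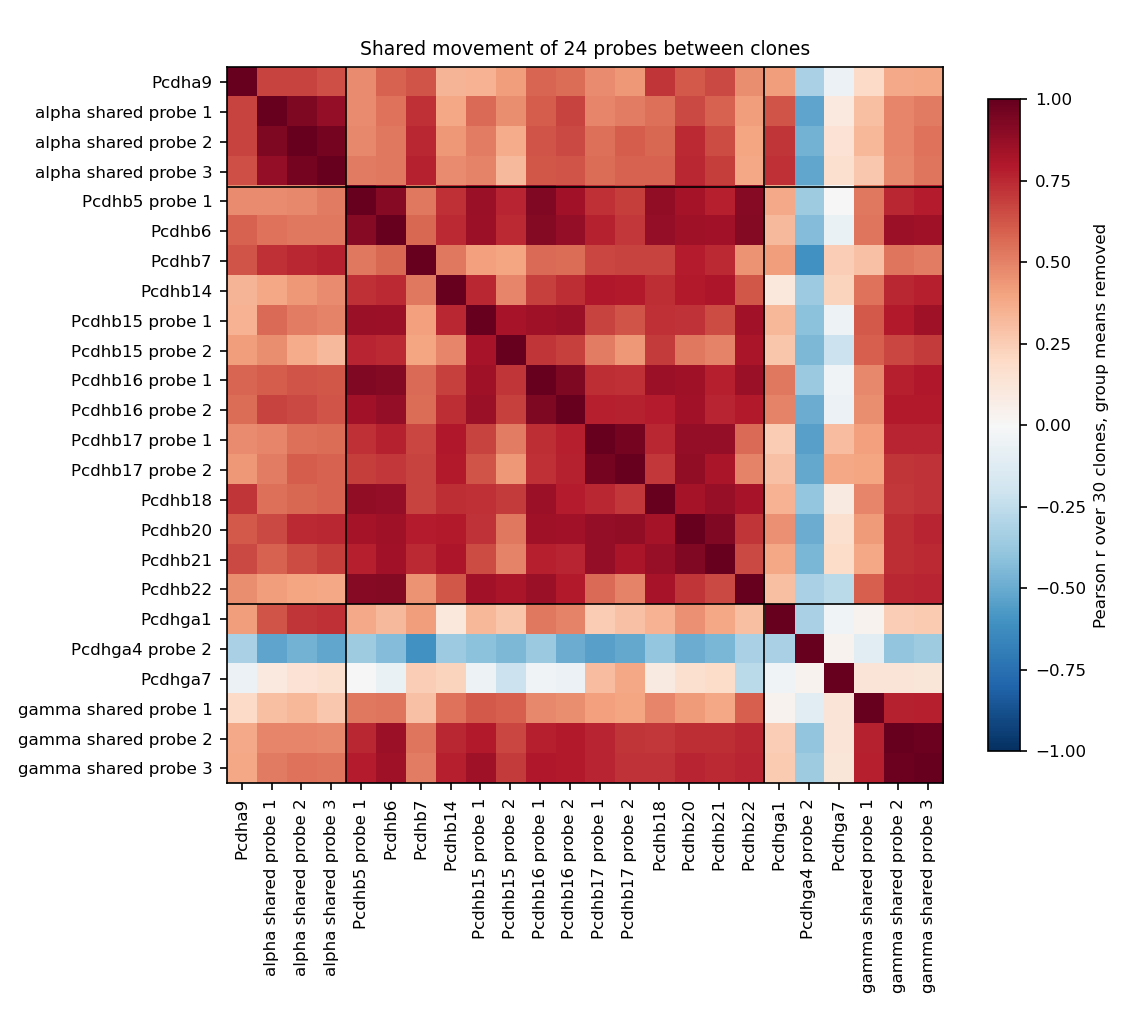
Pearson correlation over 30 clones, after removing group means, between the 24 probes measured in at least 15 clones, with lines dividing Pcdha, Pcdhb and Pcdhg. The Pcdhb block is red throughout (0.39 to 0.92), the gamma shared probes follow it, and Pcdhga4 probe 2 is blue against all Pcdhb probes.

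The clones at the ends of this shared movement came from several groups. By the mean deviation over 14 Pcdhb probes, 4F-OP-iPS #2 ranked highest, followed by 3F-TTF-iPS #3, 4F-TTF-iPS #5 and 3F-PαS-iPS #2. It was the highest clone for 7 of the 14 probes, and 3F-TTF-iPS #3 for 4. The lowest were 4F-PαS-iPS #5, lowest in 6 of 14, then 3F-TTF-iPS #5, 3F-PαS-iPS #3, 3F-PαS-iPS #5 and 4F-PαS-iPS #4. Both ends thus held 3F-TTF-iPS clones, and that group spanned ranks 2 to 29. 4F-OP-iPS #2 was highest in gamma shared probes but 18th in alpha shared probes, and its mean of the fibroblast genes, 0.31, was below the clone median of 1.23, while its mean of the primitive endoderm genes, 3.29, was the highest of all clones. Its mean of 9 pluripotency genes was -2.83, against a clone median of 2.16, which set it beside 4F-OP-iPS #1 at -2.93, 4F-OP-iPS #3 at -2.91 and 4F-TTF-iPS #1 at -2.37. The part of this in its Pcdhb levels was not tested.

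**Figure D4:**
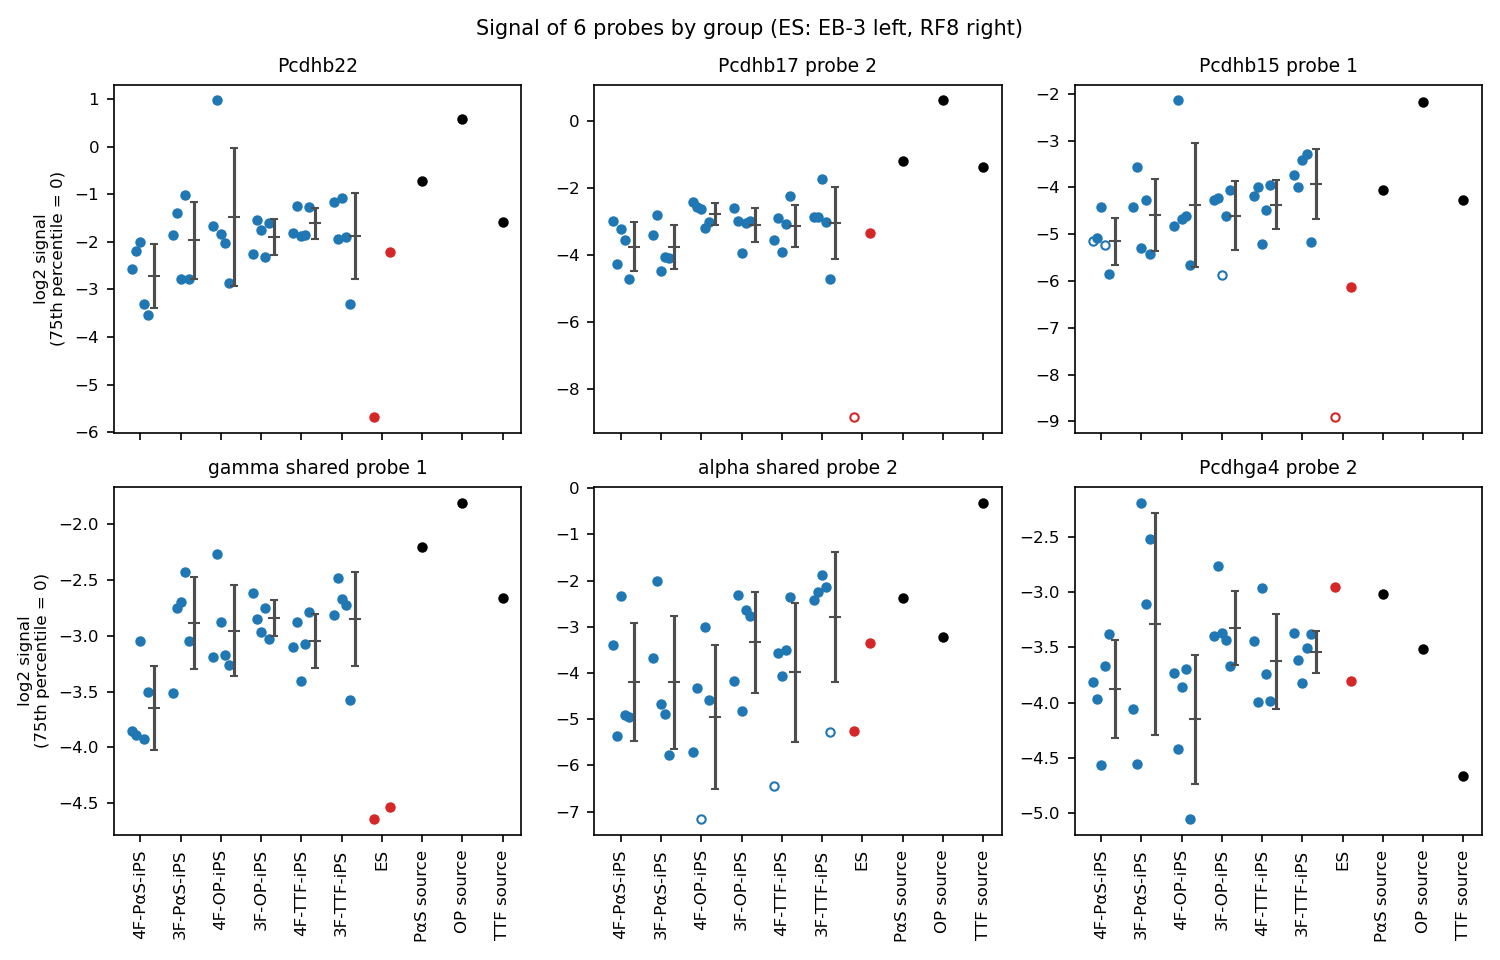
Log2 signal (array 75th percentile = 0) of 6 member probes by group, with 5 clones a group (blue; bars show mean ± SD), EB-3 and RF8 (red, in that order) and the sources (black, 1 array each); open symbols were not well above background. All clones lie above both ES arrays for Pcdhb15 probe 1 and gamma shared probe 1, and 4F-OP-iPS #2 stands above the other clones of its group for Pcdhb22 and Pcdhb15 probe 1.

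The shared part of Pcdha moved with neural genes. Over 30 clones the mean of the 3 alpha shared probes and the mean of 13 neural genes correlated at r = 0.88 and rho = 0.85, at 0.86 without the 2 clones farthest from the median and at 0.91 within groups, and 13 of 13 genes were positive within groups (0.23 to 0.91). The highest alpha shared mean was in 3F-TTF-iPS #3, whose neural mean of 0.12 was the highest of the clones, and the lowest was in 4F-OP-iPS #3. For the Pcdhb probes the same correlation was 0.55, and for the gamma shared probes 0.21. Fibroblast genes gave 0.76 with the alpha shared probes, 0.33 with Pcdhb and 0.23 with gamma shared. Across the 3 sources, 1 array each, the neural mean was -5.22 to -4.49, with 7 of 13 genes well above background. The alpha shared probes were highest in the TTF source. The part of neural cells in the cultures was not tested, and these correlations are descriptions over 30 clones that share arrays.

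**Figure D5:**
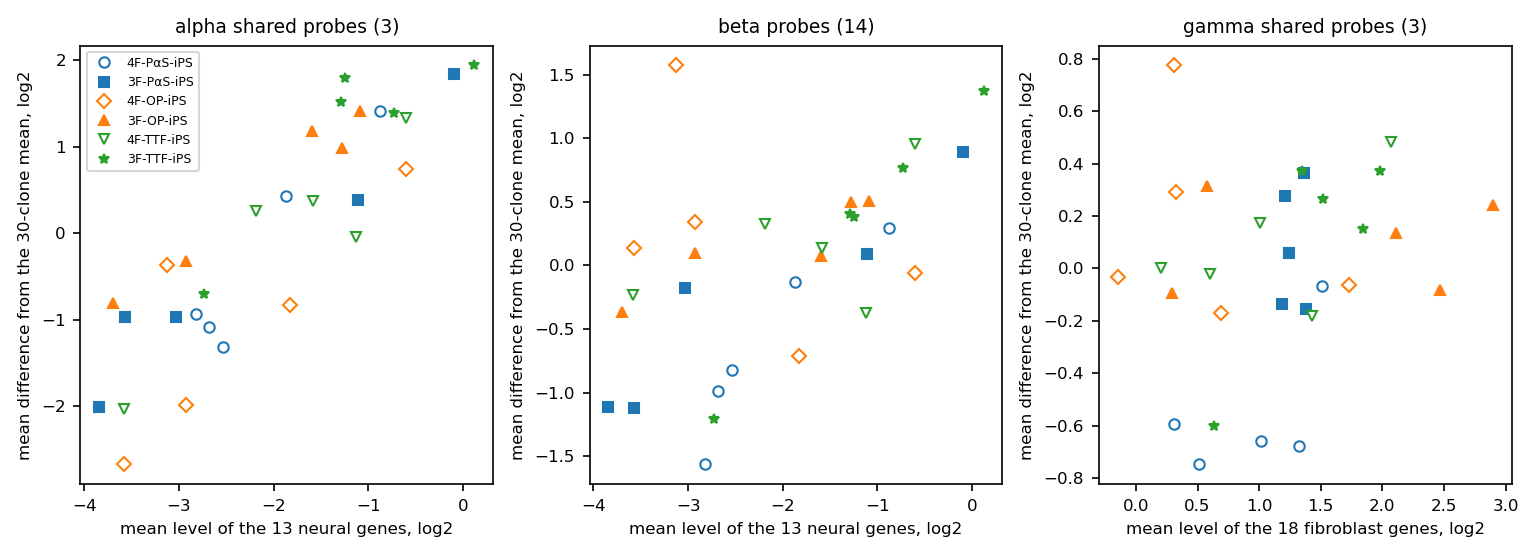
Mean deviation of the alpha shared, Pcdhb and gamma shared probes from the mean of the 30 clones (vertical axes, log2) against the mean level of 13 neural or 18 fibroblast genes (horizontal axes, log2), 1 point per clone, with colour for source and open symbols for 4F. The alpha shared probes follow the neural mean (r = 0.88), the Pcdhb probes less so (0.55), and the gamma shared probes show little relation to the fibroblast mean (0.23).

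Between sources of the clones, no member passed the test. PαS-iPS clones read lower than OP-iPS clones in 20 of 22 member probes, with medians of -0.40 over all, -0.69 over the Pcdhb probes and 0.03 over all probes tested. Limma called 0 members (6 at an unadjusted p under 0.05), where 1.6% of all probes were called, and the smallest adjusted p was 0.118, for gamma shared probe 2 at -0.35 ± 0.13. Within each slide that held clones of both sources the median over members was also negative, at -1.18, -0.51 and -0.92. These are subsets of the same clones, with 2 PαS-iPS against 2 OP-iPS, 1 against 3 and 2 against 2. The first held 4F-PαS-iPS #5 and 4F-OP-iPS #2, the lowest and the highest clone by the Pcdhb mean. With normexp 14 of 22 differences were positive, so the direction was not kept; that setting moved the median of all probes from 0.03 to 0.15. Against TTF-iPS clones, PαS-iPS clones also read lower in 20 of 22, with a median of -0.64, and 0 were called (4 at an unadjusted p under 0.05), where 0.5% of all probes were; with normexp 11 of 22 were positive. Pcdhb18 had the smallest adjusted p, at -0.89 ± 0.25 (limma, adjusted p = 0.0714), and without 3F-TTF-iPS #5 it passed at -1.01 (adjusted p = 0.0409). OP-iPS and TTF-iPS clones differed by a median of -0.04, with 0 called (0 at an unadjusted p under 0.05), where 0.0217% of all probes were. The 2 comparisons with PαS-iPS clones share those clones.

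Between 3F- and 4F-clones 1 member was called, in 1 source. In OP-iPS clones Pcdhga7 read -6.93, -7.72, -5.20, -6.05 and -6.49 in the 5 4F-clones, 2 of them well above background, and -4.68, -5.49, -5.45, -5.09 and -5.11 in the 5 3F-clones, all well above background. The groups overlap at 4F-OP-iPS #3. The difference was 1.31 ± 0.40 (limma, adjusted p = 0.043), the only member called of 22, where 3.94% of all probes were called higher in 3F-clones. The gamma shared probes, listed under the same gene name, differed by 0.11, -0.13 and -0.16. In PαS-iPS clones Pcdhga7 differed by -0.02 ± 0.40 and in TTF-iPS clones by 0.53 ± 0.40, and the test of the difference between sources gave -1.33 ± 0.57 for PαS minus OP (limma, adjusted p = 0.204). 3F- and 4F-OP-iPS clones were on different slides, so slide and factor cannot be told apart, and the call was lost when slide was a random block and under normexp. It was also lost without the 3 clones low in Sox2 and Nanog. Pluripotency genes moved in the same comparison, with a median of 2.41 and 2 of 9 called higher in 3F-clones. Their part in the Pcdhga7 call was not tested.

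In PαS-iPS clones the gamma shared probes read higher in 3F-clones, without passing the test. Gamma shared probe 1 differed by 0.76 ± 0.22 (limma, adjusted p = 0.132) and probe 2 by 0.59 ± 0.18 (limma, adjusted p = 0.145). On probe 1 the groups overlap, since 4F-PαS-iPS #3 and #5 lay within the range of the 3F-clones. 3F- and 4F-PαS-iPS clones were on different slides, so slide and factor cannot be told apart here either. 3F- and 4F-TTF-iPS clones also shared no slide, though clones of other groups link their slides. With normexp the median over members turned from 0.36 to -0.31, with that of all probes at -0.22. Limma called 0 members there (4 at an unadjusted p under 0.05), where 0.0181% of all probes were called, and 0 in TTF-iPS clones (1 at an unadjusted p under 0.05, Pcdhga1), where 5.78% were. Pcdhga1 went opposite ways, at -1.17 ± 0.50 in PαS-iPS clones (limma, adjusted p = 0.237) and 1.32 ± 0.50 in TTF-iPS clones (adjusted p = 0.0911), and the test of that difference gave -2.48 ± 0.71 (limma, adjusted p = 0.078). No member was called in any difference of the 3F effect between sources (5, 4 and 0 at an unadjusted p under 0.05).

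Several genes that act on clustered protocadherin promoters were lower in clones than in ES cells. Against both ES lines together, of 21 such genes, all tested, 8 were called lower and none higher in clones, where 19.0% of all probes tested were called lower and 17.2% higher, with a median of -0.97 beside -0.11 over all probes. The median of the 21 was -0.79 against RF8 alone and -1.03 against EB-3 alone. Dnmt3b, a de novo DNA methyltransferase that methylates these promoters, fell by 2.98 ± 0.54 (limma, adjusted p = 4.88e-05), from 3.73 in EB-3 and 3.83 in RF8 to -1.24 to 2.63 in clones. Ctcf, which loops the promoters to their enhancers, fell by 1.54 ± 0.15 (limma, adjusted p = 8.98e-09), from 2.89 in EB-3 and 2.79 in RF8 to 0.90 to 1.91 in clones. Nipbl, which loads cohesin, fell by 1.45, and Uhrf1, which maintains DNA methylation, fell by 2.16. For these 4 genes both ES arrays lay above all clones. Of 9 pluripotency genes 4 were called lower in clones in the same comparison and none higher, with a median of -2.71, and their part in the values of the regulators was not tested. Between clones 1 of the 21 was called in each of 2 comparisons. Dnmt3l, a cofactor of de novo methylation, was higher in PαS-iPS than in OP-iPS clones by 2.39 ± 0.65 (limma, adjusted p = 0.0371), where 0.815% of all probes were called higher. In 3F- against 4F-OP-iPS clones Uhrf1 fell by 1.05 ± 0.21 (limma, adjusted p = 0.00435), where 0.576% of all probes were called lower. The 3F- and 4F-OP-iPS clones were on different slides, so slide and factor cannot be told apart for Uhrf1. Pluripotency genes moved in both comparisons, with a median of 1.81 and 1 of 9 called higher in PαS-iPS than in OP-iPS clones, and a median of 2.41 and 2 of 9 called higher in 3F- than in 4F-OP-iPS clones. In 4F-OP-iPS the clones #1, #2 and #3 stood apart in these genes, as given above, and their part in the 2 calls was not tested. Over 30 clones the mean of the list correlated with the mean of the gamma shared probes at r = -0.57 and rho = -0.52, at -0.50 without the 2 clones farthest from the median and at -0.31 within groups. With the Pcdhb mean it correlated at -0.33, and at -0.07 within groups. With the alpha shared mean it correlated at -0.05, and at 0.31 within groups. Within groups and slides these values were -0.18 for gamma shared, 0.01 for Pcdhb and 0.48 for alpha shared, so the clusters did not share a direction. Other lists also ran with the gamma shared mean. The 9 pluripotency genes correlated with it at r = -0.49 and rho = -0.64, at -0.57 without the 2 clones farthest from the median and at -0.37 within groups, and the 7 primitive endoderm genes at 0.31 and 0.37, at 0.16 without 2 clones and at 0.48 within groups.

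Protocadherins encoded outside the clusters were in part low in EB-3 and in part not. EB-3 measured 5 of the 13 listed genes and the clones 8 to 11, so a gene dark in EB-3 passed the filter through arrays where it was measured. Of the 10 tested, 5 were called higher in clones and none lower, where 17.2% of all probes tested were called higher. Without the filter 5 of all 13 were called higher, where 15.1% of all probes were. Against RF8 alone limma called 0 of the 10 (1 at an unadjusted p under 0.05), so these calls rest on EB-3, as in the Pcdhb cluster. Pcdh9 read -8.27 in EB-3, not well above background, -3.19 in RF8 and -4.75 to -1.06 in clones, which puts the clones at least 13.2-fold above EB-3 and RF8 inside their range. Pcdh18 read -6.78, not well above background, -0.96 and -1.99 to -0.28, with RF8 inside the clone range. Pcdh10 read -6.43, -4.95 and -4.77 to -2.56, with both lines below all clones. Of the 5 genes that EB-3 measured, Pcdh1, Pcdh8 and Pcdh21 had clone means below EB-3, with differences of -0.29, -0.98 and -3.96 in log2. Pcdh21 read 0.36 in EB-3, -2.19 in RF8 and -7.59 to 2.47 in clones, and its fitted difference of -2.69 ± 1.43 from both lines did not pass the test (limma, adjusted p = 0.114). In 3F- against 4F-TTF-iPS clones Pcdh21 fell by 4.37 ± 1.23 (limma, adjusted p = 0.0248), the 1 gene called of 10, where 1.81% of all probes were called lower. These 3F- and 4F-clones shared no slide, so a difference between slides can enter this value. Partners of the shared cytoplasmic parts were called no more often than other probes, at 1 of 7 in each direction where 17.2% of all probes were called higher and 19.0% lower. The one that rose was Ptk2b, a focal adhesion kinase relative, with a difference of 1.66 ± 0.42 (limma, adjusted p = 0.00174), and the one that fell was Wasf1, an actin regulator of the WAVE complex, with a difference of -2.07 ± 0.38 (limma, adjusted p = 5.88e-05). Ptk2b read -2.25 and -2.21 in the ES lines, both below all clones, which read from -2.03 to 1.64.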

How the data were processed

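RNA of 35 samples was hybridised to 1-colour Agilent mouse arrays. Per the file headers, the deposited intensity values are Feature Extraction output: the processed signal, background-subtracted and detrended by the scanner software, the raw spot and background signals, and flags. The authors also deposited log2 values from GeneSpring GX, found here to be scaled per array and centred per probe on its median over the arrays; these served as an alternative. Here log2 of the processed signal minus the array's 75th percentile was used, control spots and outlier spots were left out, and spots of 1 probe were averaged.

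The members and gene lists were chosen with earlier results of these data known. A limma 3.58.1 model (R 4.3.3) with the 6 clone groups and ES cells was fitted on 32 arrays to the 27617 probes, of 41174, that were well above background on all arrays of a group, with Benjamini-Hochberg adjustment over those probes. Called means adjusted p under 0.05 and at least 2-fold; errors are SE of differences and SD of groups. Sources, 1 array each, were not tested. Fold bounds set a group mean against the lowest signal well above background on the dim array. Named were, per cluster, the 3 highest and 3 lowest by median and the 3 with the largest SD among probes measured in at least 15 clones, all called members up to 10, the 2 largest differences from ES cells each way and the highest on each source; genes outside this rule are marked in the text or described as dark probes. For the other lists at most 4 genes were named per comparison. Summaries used Python 3.11.15, numpy 2.4.6, pandas 2.3.3 and scipy 1.17.1. The fit was tested on simulated data for all 27617 probes with 200 changed: a change of 1.5 in log2 was recovered for 58% of probes in clones against ES cells and 77% in 3F- against 4F-OP-iPS clones. The simulated noise was independent between arrays and had the SD within clone groups, also on the ES arrays. It held no slide effect and no difference between the ES lines, so these rates do not describe probes where EB-3 and RF8 differ. Precision is set by how many arrays there are. Clone numbers were checked as pairs between groups: 16 of 75 same-numbered pairs had a correlation over 0.1 (median -0.000687), so the numbers were not taken as pairs. Alternatives were normexp with an offset of 50, quantile normalization, the authors' values, other filters, a floor, no fold minimum, slide as a block, the clone number as a block, each ES array alone, and leaving out arrays. No sequences are printed for these genes.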

Additional observations from a re-analysis of the deposited data

Results flagged for a closer look

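Among 144 sets of 5 clones (24 member probes in 6 groups), 8 held a clone far from the other 4, which is 5.56%; chance gives about 1 in 20. The number in each case is the gap to the nearest clone as a share of the range of the group.

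In 3F-TTF-iPS, clone #5 was the lowest in 5 of the 8. Alpha shared probe 1 read -5.04 against -3.86 to -3.67 (0.865) and alpha shared probe 2 read -5.27 against -2.43 to -1.88 (0.837), both not well above background in this clone. Pcdhga7 read -6.14, not well above background, against -5.12 to -4.83 (0.782). Gamma shared probe 2 read 2.29 against 3.01 to 3.24 (0.758), and gamma shared probe 3, which overlaps it, read 2.61 against 3.39 to 3.68 (0.725).

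In 4F-OP-iPS, clone #2 was the highest for Pcdhb16 probe 2, at -2.31 against -4.92 to -4.40 (0.801), and for Pcdhb15 probe 2, at -2.40 against -6.26 to -5.26 (0.741). In 3F-OP-iPS, clone #4 was the lowest for Pcdhb15 probe 2, at -5.36 and not well above background, against -4.88 to -4.80 (0.858). What set these clones apart was not tested.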

How the results depend on the processing

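Against ES cells 12 members were called, and 0 with normexp and 3 (Pcdhb5 probe 1, Pcdhb22 and gamma shared probe 1) when only probes measured on all arrays were kept, where 6 members were tested. Other settings gave 9 (slide as a random block) to 16 (no filter). Leaving out 1 array gave 1 to 14, with 1 without EB-3, and Pcdhga1 was called lower without RF8 (-2.31), 4F-OP-iPS #2 (-1.34) or 4F-TTF-iPS #5 (-1.36); Pcdhb16 probe 1 then ran from -0.0597 (without EB-3) to 3.91 and Pcdhb21 from -0.0891 (without EB-3) to 5.77, both with the dark EB-3 signal at face value. The median difference, 1.64, was 0.35 with normexp and 0.94 without the filter, and 0.16 (without EB-3) to 2.08 with 1 array left out. Another probe listed under the gene of gamma shared probe 1, Pcdhga7, gave -0.29. The median SD, 0.71 (all probes 0.42), was 0.50 with normexp (all probes 0.41). With probes measured on all arrays it was 0.46 over 6 members (all probes 0.34).

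Between 3F- and 4F-OP-iPS clones the 1 call (Pcdhga7) became 0 with normexp, quantile normalization, no filter, probes measured on all arrays, a floor, slide as a random block, and without the 3 clones low in Sox2 and Nanog. Leaving out 1 array gave 0 to 1; it was lost without 3F-PαS-iPS #5, 4F-OP-iPS #1, #2 or #5, any 3F-OP-iPS clone, 4F-TTF-iPS #2, or 3F-TTF-iPS #2 or #3. Gamma shared probes 2 and 3 gave -0.13 and -0.16. The cause of these changes was not tested. With 1 array left out, PαS-iPS against TTF-iPS clones gave 0 to 1 (Pcdhb18 at -1.01 without 3F-TTF-iPS #5), 3F against 4F in TTF-iPS clones 0 to 1 (Pcdhga1 at 1.69 without 4F-TTF-iPS #5) and the difference of the 3F effect between sources 0 to 1 (Pcdhga1, without 4F-OP-iPS #4 or 4F-TTF-iPS #5).

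With the clone number as a replicate block, 14 members were called against ES cells, Pcdhb18 and gamma shared probe 2 being added, and 1 between 3F- and 4F-OP-iPS clones (limma, adjusted p = 0.0442); it changed no other count. Slide as a fixed block could be fitted for PαS-iPS against OP-iPS clones, 3F against 4F in TTF-iPS clones and 1 difference of the 3F effect, with 0 calls. Probes near background limit the Pcdhb results.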
